A study of Mus musculus with 2 samples.

Results

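The 47 genes described here encode proteins of homologous recombination, the Fanconi pathway, the DNA damage checkpoint, end joining, mismatch repair and the sensing of strand breaks. They were taken by gene symbol from the 23282 gene rows of the count tables, where each of the 47 symbols stood on 1 row. Naïve CD4 T cells from the spleen of *Fak* fl/fl mice were activated with anti-CD3ε and anti-CD28 and received either an empty control retrovirus or RV-Cre, a retrovirus encoding Cre recombinase. Both were kept for 3 days with IL-6, TGFβ1, TNF-alpha, IL-1beta and antibodies against IFNgamma and IL-4 to give Th17 cells, from which GFP+ cells were sorted for 1 RNA-seq library per condition. The genotype label of the control reads WT although its title names *Fak* fl/fl cells. The title was followed here, and on that reading both conditions share the floxed allele, the retroviral transduction and the polarizing cytokines. The study's methods give the mice as female and 6 to 8 weeks old, and the sources used here do not say how many mice were pooled. An effect of Cre itself cannot be told apart from that of losing *Fak*, since no Cre-transduced library without the floxed allele was analysed here.

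A double-strand break is first held by the MRE11, RAD50 and NBN proteins and trimmed to single-stranded DNA. In the S and G2 phases, BRCA1, BARD1, PALB2 and BRCA2 then direct repair by copying the sister chromatid. The Fanconi proteins open DNA crosslinks for the same repair, whereas the Ku proteins, DNA-PKcs and ligase IV join broken ends in any phase, and the kinases ATM, ATR, CHK1 and CHK2 halt the cycle while damage is present. Activated T cells divide quickly and depend on these proteins at their replication forks, and many of the recombination genes are transcribed mainly in cells that are about to replicate.

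Counted reads came to 13799264 for the control and 12305010 for RV-Cre. *Ptk2*, the symbol of *Fak*, had 110 and 31 of them, a normalized ratio of 0.318 (95% interval 0.206 to 0.477). The Th17 markers *Il17a*, *Il17f* and *Ccr6* had a 95% interval below 1, while *Il23r* had 9 and 10 reads. *Rn45s*, a ribosomal RNA gene, took 8.50% of the control reads and 14.6% of the RV-Cre reads. Summed CPM, reads scaled to the library total, of the 6 T cell markers in the tables went from 1103 to 1721, of the 5 CD8 and NK cell markers from 35.4 to 70.5, of the 5 myeloid markers from 7.83 to 15.1, of the 5 B cell markers from 3.04 to 8.78 and of the erythroid markers from 2.90 to 18.9. The interval lay above 1 for 5 of 6 T cell markers, and, of those past the minimum, for 2 of 3 CD8 and NK cell, 1 of 3 myeloid, 3 of 4 B cell and 3 of 3 erythroid markers. It lay below 1 for the NK cell marker *Klre1* (32 and 5 reads) and the myeloid marker *Lyz2* (22 and 7 reads). *Pax5* was at 0 in both libraries, *Ncr1* and *Adgre1* at 0 in the control library and *Klrb1c* at 0 in the RV-Cre library. The part of these differences in the results given here was not tested. Counts were scaled with TMM factors, a ratio is RV-Cre over control, and a log2 ratio is that of the normalized counts with 1 added. For each gene, the exact (Clopper-Pearson) method applied to how its reads divide between the libraries gave the 95% interval. Such an interval holds counting error alone. A single library per condition allows no replicate check and no test across genes.

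Most of the 47 genes had fewer reads in RV-Cre-transduced Th17 cells. All 47 passed the expression minimum, set at 15 normalized reads (a log2 value of 4) in either library. The 95% interval lay below 1 for 37 of them and above 1 for 4, and spanned 1 for 6. Over all 12112 genes past the minimum the shares were 38.1% below 1 and 36.7% above 1. A 2-fold lower value was seen for 18 of the 47 (38.3%), against 12.3% of all genes, and a 2-fold higher value for 0 of the 47, against 14.2% of all genes. For 12 of the 18 the whole interval lay beyond 2-fold, a count with no share of all genes to set beside it. The median log2 ratio of the 47 was -0.79, and that of all genes past the minimum was -0.01. At a stricter minimum, a log2 value of 6 in either library, 11.0% of the 9688 genes were at least 2-fold lower. The 47 genes passed it too, some of them through the control library alone, so their passing is no support. With a log2 value of 4 required in both libraries, which *Rad51b* did not reach, 17 of 46 were at least 2-fold lower, against 10.4% of all genes. In a bulk library, fewer cells in which a gene is transcribed and less RNA per cell cannot be told apart.

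**Figure D1:**
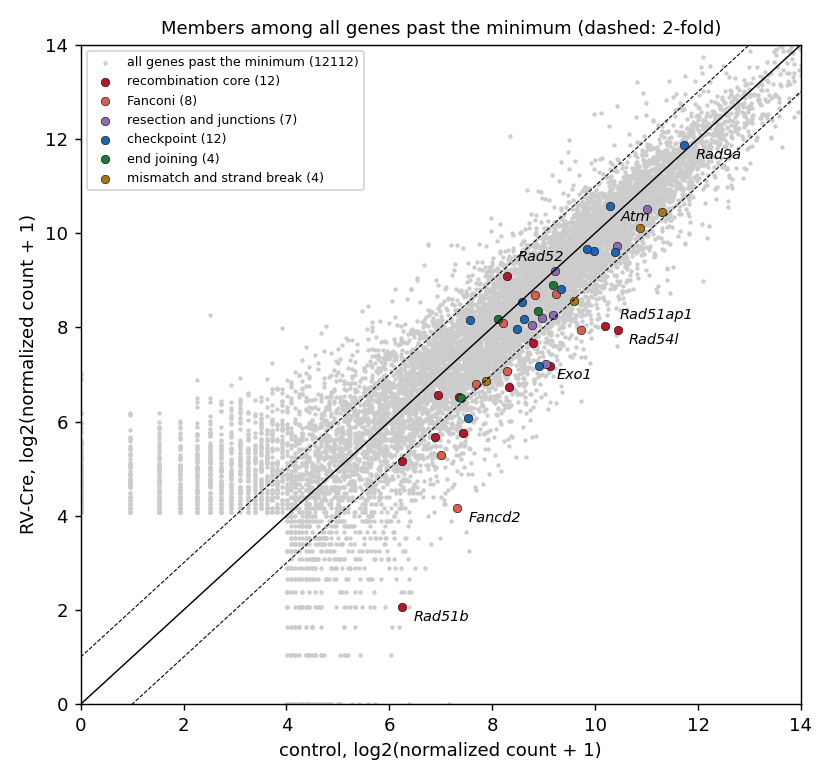
Normalized counts of the control library (x axis) and the RV-Cre library (y axis), as log2(normalized count + 1), for the 12112 genes past the expression minimum (grey; genes above 14 on either axis lie outside the plot) and the 47 repair and checkpoint genes (coloured by role). The solid line marks equal values and the dashed lines 2-fold differences; 18 coloured points lie below the lower dashed line and 0 above the upper one.

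Promoter windows are shown for 7 genes whose ratios lie on both sides of 1, so that the letters near their start sites can be set beside the ratios. RefSeq promoter sequences (GRCm38.p6, from 250 bases before to 50 bases after a start) were matched for 37 of the 47 genes, with 43 starts. No entry was matched for *Exo1*, *Fancd2*, *H2afx*, *Nbn*, *Prkdc*, *Rad50*, *Rad54b*, *Rad9a*, *Rbbp8* and *Xrcc2*. The letters searched on both strands were TTTCCCGC, TTTCGCGC, TTTGCCGC and TTTGGCGC, forms of the site of E2F factors, which drive transcription at the entry to S phase, and CCAAT, the site of NF-Y, which is common in cell cycle promoters. CCAAT reads ATTGG where it lies on the opposite strand. The windows shown lie before a start site and outside annotated exons, are written 5′ to 3′ on the strand of the gene, and carry the matched letters in capitals. *Bard1* and *Mdc1* are shown for the E2F letters, since the first was at least 2-fold lower and the second was not. The others are shown for CCAAT, which stands before genes of low ratio (*Rad51b*, *Rad54l*, *Brca1*, *Brip1*) and before *Atrip*, whose ratio was above 1.
*Bard1*, E2F letters, chr1:71103148-71103207, minus strand: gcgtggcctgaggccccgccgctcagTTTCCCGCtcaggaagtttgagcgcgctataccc
*Mdc1*, E2F letters, chr17:35841456-35841494, plus strand: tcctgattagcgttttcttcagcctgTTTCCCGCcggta
*Rad51b*, CCAAT reversed, chr12:79297241-79297281, plus strand: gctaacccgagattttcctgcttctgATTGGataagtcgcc
*Rad54l*, CCAAT, chr4:116123710-116123766, minus strand: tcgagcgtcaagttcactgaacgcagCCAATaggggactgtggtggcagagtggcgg
*Brca1*, CCAAT, chr11:101552011-101552067, minus strand: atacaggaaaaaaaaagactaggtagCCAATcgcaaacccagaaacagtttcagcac
*Brip1*, CCAAT reversed, chr11:86201216-86201253, minus strand: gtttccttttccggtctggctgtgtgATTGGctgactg
*Atrip*, CCAAT reversed, chr9:109074125-109074160, minus strand: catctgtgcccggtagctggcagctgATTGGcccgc

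The E2F letters stood in 10 of the 43 member promoters (23.3%) and in 2.26% of all 32851 promoters of the same length. These promoters were not limited to genes past the expression minimum. Counted per gene, the letters stood in 9 of 37 members and in 439 of 9155 genes past the minimum with a promoter entry. Of the 9 genes that hold them, *Bard1*, *Brca2*, *Chek2* and *Rad51c* were at least 2-fold lower, while *Fancg*, *Topbp1*, *Msh6*, *Xrcc6* and *Mdc1* were not, and of the 28 genes without them, 11 were. Over all genes past the minimum with a promoter entry, 18.9% with the letters and 11.3% without them were at least 2-fold lower. The median log2 ratio was -0.87 for these 9 genes and -0.83 for the 28 genes without the letters. Over all 9155 genes past the minimum with a promoter entry and a symbol of their own, the medians were -0.32 with the letters (439 genes) and 0.02 without them. CCAAT stood in 21 of the 43 member promoters (48.8%) and in 37.4% of all promoters. Counted per gene, it stood in 19 of 37 members and in 3964 of the 9155 genes. Of the 19 member genes with CCAAT, 9 were at least 2-fold lower, and of the 18 without it, 6 were. Over all genes past the minimum with a promoter entry, the shares were 12.9% with CCAAT and 10.7% without it. TTTGAA, the core of the CHR element of cell cycle promoters, stood in 4 of the 43 (9.30%) and in 17.9% of all promoters. Counted per gene, it stood in 4 of 37 members and in 1313 of the 9155 genes. Of the 4 genes with it, 2 were at least 2-fold lower, and of the 33 without it, 13 were, with medians of -1.32 and -0.84, against 15.2% and 11.0% lower over all genes past the minimum with a promoter entry. A match is a description of these letters in this window and not of binding.

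Of the 12 recombination genes, 9 (75%) had a value at least 2-fold lower, against 12.3% of all genes, and the group's median log2 ratio was -1.41. *Rad51b* (chr12:79297282-79848260), whose product acts in strand exchange, had 80 control reads and 3 RV-Cre reads. Its ratio of 0.0423 (95% interval 0.00855 to 0.128) was the lowest of the 47, and 0.330% of all genes past the minimum had a lower log2 ratio. This rank rests on 3 reads. Its interval overlaps that of *Fancd2*, and its log2 ratio of -4.19 became -2.69 with a pseudocount of 10, beside -2.65 for *Fancd2*. *Rad51ap1* (chr6:126923415-126939621), whose product stimulates strand pairing, went from 1243 to 245 reads, a ratio of 0.222 (95% interval 0.193 to 0.255). The translocase gene *Rad54l* went from 1477 to 232 reads and its relative *Rad54b* from 183 to 50, ratios of 0.177 and 0.308, and both share exons with another gene, as described further on. All 4 were at least 2-fold lower under every scaling run.

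The genes of the BRCA axis had lower values as well. *Bard1* (592 and 136 reads) had a ratio of 0.259 (95% interval 0.214 to 0.313), and *Brca1*, whose product forms a ubiquitin ligase with BARD1, 342 and 99 reads, a ratio of 0.327 (95% interval 0.258 to 0.410). *Palb2*, which links BRCA1 to BRCA2, had 124 and 47 reads, and *Brca2*, a mediator of strand exchange, 467 and 190. Their ratios were 0.428 (95% interval 0.299 to 0.603) and 0.459 (95% interval 0.386 to 0.545), so the intervals of both reach past a ratio of 0.5. *Rad51c*, *Xrcc3* and *Xrcc2*, whose products act in the same step, were nearer to equality than *Rad51b*. *Rad51c* had 80 and 33 reads with a ratio of 0.465, *Xrcc3* 173 and 86 with a ratio of 0.561, and *Xrcc2* 130 and 88 with a ratio of 0.764, whose interval (0.576 to 1.01) spans 1 and which turned above 1 with scaling to *Gapdh*. *Rad52* (chr6:119901722-119922827), a mediator whose loss is mild in mammalian cells, stood on the opposite side. With 330 control reads and 513 RV-Cre reads, it had a ratio of 1.75 (95% interval 1.52 to 2.02), the highest of the 47. With scaling to *Gapdh* it was at least 2-fold higher, as were 24.3% of all genes. That scaling raised the median log2 ratio of all genes to 0.43.

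**Figure D2:**
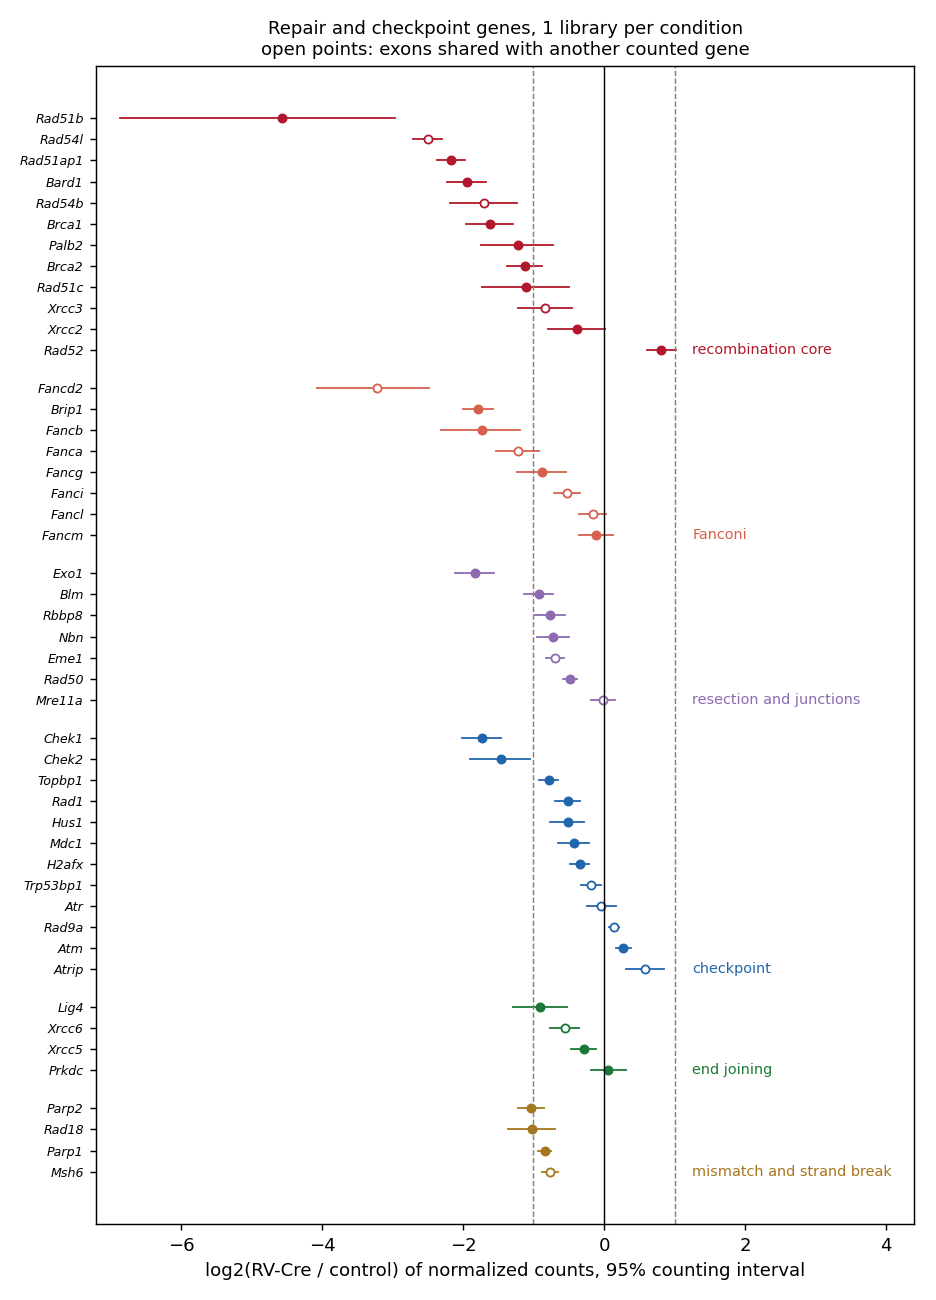
Normalized ratio of RV-Cre over control (x axis, log2 scale, no count added) for each of the 47 genes (rows, coloured and grouped by role), with the exact 95% counting interval as a bar. Open points mark the 15 genes whose exons are shared with another counted gene, and the dashed lines mark 2-fold differences. The recombination genes reach from 0.0423 (*Rad51b*) to 1.75 (*Rad52*), whereas the end joining genes lie between 0.536 and 1.04.

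In the Fanconi group, 4 of 8 genes were at least 2-fold lower, against 12.3% of all genes, with a median log2 ratio of -1.04. *Fancd2*, whose product is ubiquitinated when the pathway is switched on, had 169 control reads and 16 RV-Cre reads, a ratio of 0.107 (95% interval 0.0597 to 0.179). *Brip1*, a helicase that binds BRCA1, went from 896 to 231 reads, a ratio of 0.291 (95% interval 0.251 to 0.337). *Fancb* and *Fanca*, members of the core ubiquitin ligase, had 135 and 36 reads and 331 and 126 reads, with ratios of 0.301 and 0.430. The remaining genes of the group were less than 2-fold different. *Fancg*, another core member, had 216 and 104 reads and a ratio of 0.543, and *Fanci*, the partner of FANCD2, 640 and 394 reads and a ratio of 0.695, both with an interval below 1. *Fancl*, the catalytic subunit of the ligase, had 485 and 384 reads, and *Fancm*, which anchors the core complex to DNA, 312 and 255. Their ratios of 0.893 and 0.922 had intervals that span 1, and with scaling to *Gapdh* their log2 ratios turned above 0.

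Of the 7 genes of end resection and junction processing, only *Exo1* was at least 2-fold lower, a share (14.3%) near the 12.3% of all genes. This exonuclease, which lengthens the single-stranded end, went from 560 to 139 reads, a ratio of 0.280 (95% interval 0.231 to 0.338). *Blm*, the helicase that dissolves joint molecules, had 615 and 287 reads with a ratio of 0.527, just short of 2-fold, and *Rbbp8*, which encodes CtIP, 533 and 277 with a ratio of 0.586. *Eme1*, a subunit of a junction nuclease, went from 1462 to 800 reads, a ratio of 0.617. The 3 genes of the complex that first holds a break differed in their ratios. *Nbn* had 461 and 247 reads with a ratio of 0.605, *Rad50* 2179 and 1382 with a ratio of 0.716, and *Mre11a* 634 and 555 with a ratio of 0.988 (95% interval 0.880 to 1.11), the last of which turned above 0 on the log2 scale with scaling to *Gapdh* and with library totals without *Rn45s*.

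The effector kinases had the lowest ratios of the checkpoint group. *Chek1*, the effector of ATR, went from 509 to 136 reads, a ratio of 0.302 (95% interval 0.248 to 0.365), and *Chek2*, the effector of ATM, from 196 to 63 reads, a ratio of 0.363 (95% interval 0.269 to 0.484). They were the 2 genes of 12 (16.7%) that were at least 2-fold lower, a share near the 12.3% of all genes. *Atr* itself had 404 and 349 reads and a ratio of 0.975, with an interval that spans 1 (0.842 to 1.13). *Atm* went from 1331 to 1425 reads, a ratio of 1.21 (95% interval 1.12 to 1.30), and *Atrip*, the partner of ATR, from 201 to 266 reads, a ratio of 1.49 (95% interval 1.24 to 1.80). *Topbp1*, the activator of ATR, went from 1411 to 725 reads with a ratio of 0.580. The clamp genes *Rad1* and *Hus1* had the same ratio of 0.699, from 683 to 423 and from 378 to 234 reads, whereas the third clamp gene, *Rad9a*, had 3617 and 3533 reads and a ratio of 1.10 (95% interval 1.05 to 1.15). The chromatin mark gene *H2afx* and the mediators that bind the marked chromatin, *Mdc1* and *Trp53bp1*, had ratios of 0.787, 0.742 and 0.882 with intervals below 1, from 1064 to 742, 415 to 273 and 979 to 765 reads. With scaling to *Gapdh*, the log2 ratios of *H2afx*, *Trp53bp1* and *Atr* turned above 0, and that of *Atr* also did with library totals without *Rn45s*. The median log2 ratio of the 12 checkpoint genes was -0.39, and with scaling to *Gapdh* it was 0.03, beside 0.43 for all genes under that scaling.

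None of the 4 end joining genes was 2-fold different, but 0 of 4 says little beside 12.3% of all genes lower and 14.2% higher. *Lig4*, the ligase of the pathway, had the lowest ratio at 0.536 (95% interval 0.408 to 0.698), from 177 to 84 reads. The Ku genes *Xrcc6* and *Xrcc5* had 505 and 304 reads and 615 and 446 reads, with ratios of 0.679 and 0.818, the second of which turned above 1 with scaling to *Gapdh*. *Prkdc*, the gene of DNA-PKcs, went from 294 to 272 reads, a ratio of 1.04 whose interval (0.882 to 1.24) spans 1. The last 4 genes all had intervals below 1, against 38.1% of all genes, and 2 of them were at least 2-fold lower, against 12.3%. *Parp2*, a sensor of strand breaks, went from 817 to 354 reads, and *Rad18*, the ligase that marks PCNA at stalled forks, from 248 to 108, ratios of 0.489 and 0.491 that lie just past 2-fold. *Parp1*, the more abundant sensor, had 2674 and 1323 reads with a ratio of 0.558 (95% interval 0.522 to 0.597), and *Msh6*, of the mismatch recognition complex, 1991 and 1038 reads with a ratio of 0.588 (95% interval 0.545 to 0.634). With scaling to *Gapdh*, 12 of the 47 genes were at least 2-fold lower, against 6.4% of all genes under that scaling. Of the 18 genes lower with TMM scaling, *Parp2*, *Rad18*, *Rad51c*, *Brca2*, *Palb2* and *Fanca* then were not. With library totals without *Rn45s*, 15 of the 47 were at least 2-fold lower, against 10.5% of all genes, and *Parp2*, *Rad18* and *Rad51c* no longer were. With a pseudocount of 10, 16 of the 47 were, against 10.4% of all genes, and *Rad18* and *Rad51c* no longer were.

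Comparing partners within a library removes the scaling factor, since both genes carry the same one. For 15 pairs of partners, the ratio of their reads in the RV-Cre library was divided by that in the control library, with exact conditional 95% intervals. The pairs share a complex or a like role, or are a kinase and its effector, and were chosen after the values had been seen. The interval excluded 1 for 10 pairs and spanned 1 for 5. No share over other pairs of genes was computed to set beside this count. For the ratios of single genes past the minimum, the interval lay below 1 for 38.1% and above 1 for 36.7%. *Fancd2* was lower relative to *Fanci*, going from 0.264 reads per read of *Fanci* to 0.0406 (ratio of ratios 0.154, 95% interval 0.0847 to 0.262). *Rad51b* and *Rad51c* had equal reads in the control library, and *Rad51b* had 0.0909 reads per read of *Rad51c* in the RV-Cre library (ratio of ratios 0.0918, 95% interval 0.0173 to 0.311). *Chek1* relative to *Atr* gave 0.310 (95% interval 0.242 to 0.395), and *Chek2* relative to *Atm* 0.300 (95% interval 0.220 to 0.405). *Nbn* and *Rad50* relative to *Mre11a* gave 0.612 and 0.725, with upper bounds of 0.745 and 0.829. The values above 1 whose interval excluded it were *Rad54b* relative to *Rad54l* at 1.74 (95% interval 1.21 to 2.47) and *Atrip* relative to *Atr* at 1.53 (95% interval 1.21 to 1.95). For *Bard1* and *Brca1* the value was 0.794 (95% interval 0.587 to 1.07), for *Chek1* and *Chek2* 0.831 (95% interval 0.584 to 1.19), and for the Ku genes 1.20 (95% interval 0.995 to 1.46). These intervals leave room for differences of the size of their bounds and do not show that the partners changed alike. Of the genes in the 15 pairs, *Fancd2*, *Fanci*, *Rad54b*, *Rad54l*, *Mre11a*, *Atr*, *Atrip*, *Rad9a*, *Xrcc3* and *Xrcc6* share exons with another counted gene. The overlaps are described further on, and the part of reads of those neighbours in the values of these pairs was not tested.

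**Figure D3:**
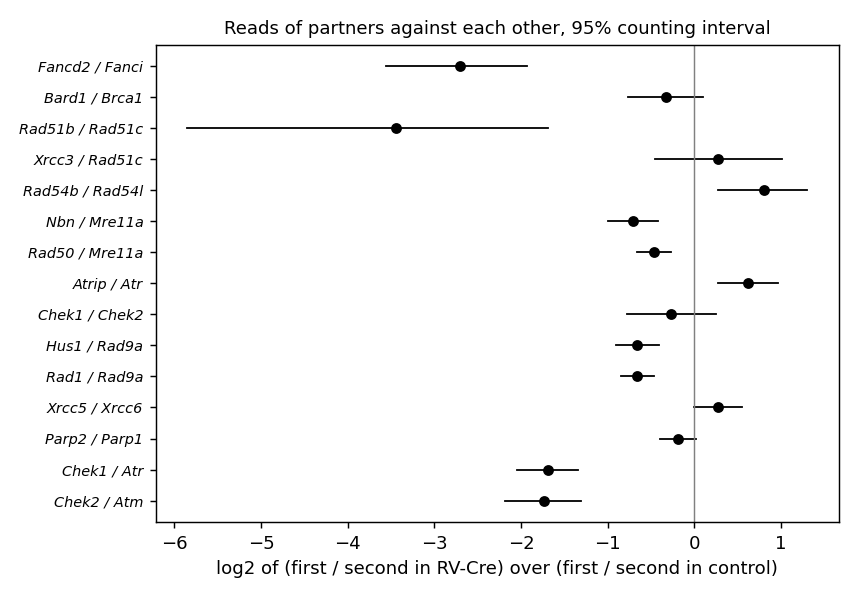
Reads of the first gene per read of the second, RV-Cre over control (x axis, log2 scale), for 15 pairs of partner genes (rows), with the exact conditional 95% counting interval as a bar. The interval lies away from equality for 10 pairs, furthest for *Rad51b* over *Rad51c* (0.0918) and *Fancd2* over *Fanci* (0.154). Genes that share exons with another counted gene are not marked, and no share over other pairs was computed.

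Exons of 15 of the 47 genes overlap those of another counted gene in GENCODE M21. Whether counting took account of strand is not given in the sources used here, so reads of such a gene and of a partner on the opposite strand cannot be told apart. *Rad54l* shares 1184 exon bases with *Lrrc41* on the opposite strand, and *Lrrc41* had 1436 and 215 reads, close to the 1477 and 232 of *Rad54l*. *Rad9a* shares 225 bases with *Ppp1ca*, which had 4272 and 3680 reads, and *Trp53bp1* shares 2130 bases with *Tubgcp4*, which had 916 and 794. *Fancd2* shares 257 bases with *Fancd2os* (136 and 37 reads), *Fanca* 920 with *Zfp276* (394 and 221 reads) and *Fanci* 921 with *Polg* (760 and 711 reads). On the same strand, *Rad54b* shares 2068 bases with *Fsbp* (144 and 65 reads) and *Atrip* 1147 with *Trex1* (446 and 659 reads). Reads in those bases cannot be told apart even when counting takes account of strand. The other 7 genes are *Xrcc3*, *Mre11a*, *Eme1*, *Fancl*, *Atr*, *Xrcc6* and *Msh6*. Without the 15 genes, an alternative chosen after the data were seen, 14 of 32 were at least 2-fold lower (12.3% of all genes), 27 had an interval below 1 (38.1% of all genes) and 2 above 1 (36.7% of all genes), and the median log2 ratio was -0.88.

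Other repair genes were listed by pathway, and like the 47 genes these lists were chosen with earlier results of these data known. To set beside their counts, 12.3% of all genes past the minimum were at least 2-fold lower, 14.2% were higher and 38.1% had an interval below 1. Of 27 further recombination and Fanconi genes, 25 passed the minimum, with 5 at least 2-fold lower, 2 at least 2-fold higher and a median log2 ratio of -0.39. The lowest were *Gen1* (26 reads and 1 read, ratio 0.0434, 95% interval 0.00106 to 0.264) and *Ube2t* (log2 ratio -2.28), and the highest *Mus81* (1.11) and *Ercc4* (1.02). Of 14 further checkpoint genes, 11 had an interval below 1, a share close to that of the 47 genes, and 4 (28.6%) were at least 2-fold lower, the lowest being *Clspn* (-1.67) and *Tipin* (-1.61) and the highest *Brcc3* (0.19) and *Rhno1* (0.10), with a median of -0.39. The 9 further end joining genes past the minimum had a median of 0.09, with 1 gene, *Aplf* (-1.14), at least 2-fold lower, followed by *Setmar* (-0.62), and with *Mad2l2* (0.65) and *Polm* (0.49) highest. Of 20 mismatch and base excision repair genes past the minimum, 4 were at least 2-fold lower, with a median of -0.24, *Neil3* (-1.21) and *Pms1* (-1.17) lowest and *Smug1* (0.54) among the highest. For the 10 translesion synthesis genes past the minimum the median was -0.18, with *Rev1* (-1.94) and *Shprh* (-1.55) at least 2-fold lower and *Poli* (0.85) and *Polk* (0.54) highest. Nucleotide excision repair, which removes bulky lesions throughout the cycle, had 0 of 18 genes 2-fold different in either direction and a median of -0.27, from *Gtf2h4* (-0.85) and *Gtf2h3* (-0.84) to *Uvssa* (0.52) and *Xpc* (0.85). With scaling to *Gapdh*, the medians of all of these lists were above 0, and that of all genes was 0.43. The further end joining genes, at 0.50, lay above that value and the other lists below it.

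The lists of the cell cycle had lower medians than the 47 genes. Of all genes past the minimum, 12.3% were at least 2-fold lower and 38.1% had an interval below 1. Of 53 replication genes, 25 were at least 2-fold lower (47.2%) and 51 had an interval below 1, with a median log2 ratio of -0.91 and values from *Rrm2* (-2.40) and *Fen1* (-2.36) to *Rfc2* (-0.11) and *Orc5* (0.26). Of 40 mitosis genes, 38 were at least 2-fold lower (95%), with a median of -1.86 and values from *Anln* (-3.41) and *Aurkb* (-3.39) to *Incenp* (-0.82) and *Bub3* (-0.66). The recombination and Fanconi groups, with medians of -1.41 and -1.04, lay between the mitosis and replication lists. The 4 mismatch and strand break genes, at -0.93, lay next to the replication list, and their order turned with a pseudocount of 10. The resection, checkpoint and end joining genes, at -0.72, -0.39 and -0.42, lay above both. With scaling to *Gapdh* their medians were -0.31, 0.03 and -0.005, beside -0.49 for replication, -1.44 for mitosis and 0.43 for all genes. With 1 library per condition, none of these differences between lists was tested.

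**Figure D4:**
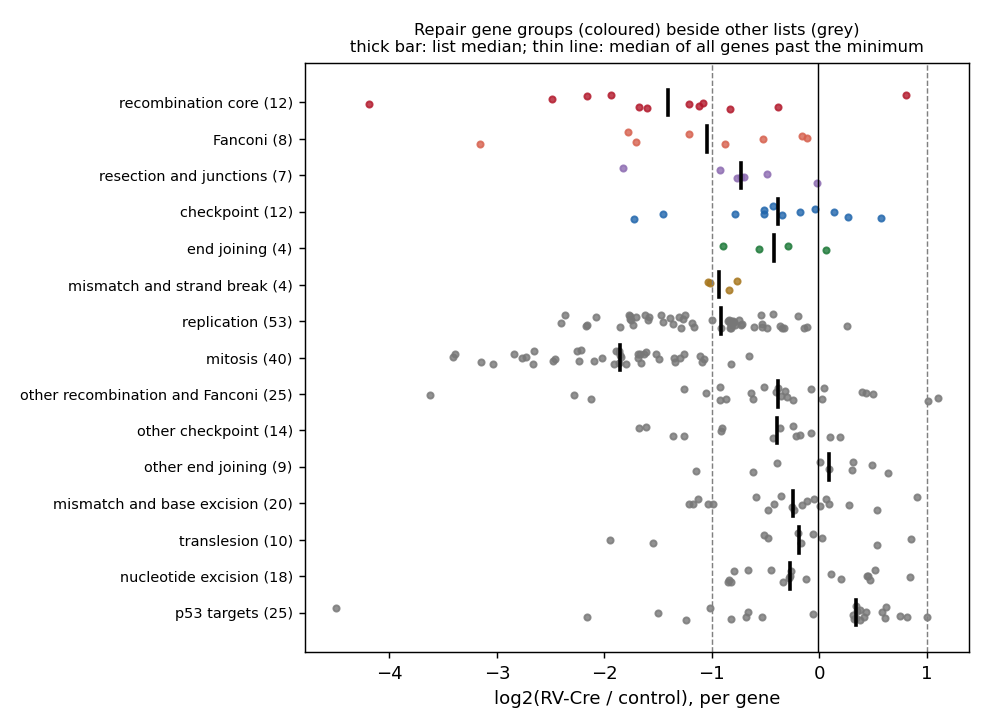
Log2 ratio of RV-Cre over control (x axis, 1 added to each normalized count) for each gene past the expression minimum (points, spread vertically for clarity), in the 6 role groups of the 47 genes (coloured) and in 9 other lists (grey), with the number of genes in brackets. Thick bars are list medians, from -1.86 for mitosis to 0.34 for p53 and its targets, and the thin line is the median of all 12112 genes.

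Targets of p53, a factor that the checkpoint kinases activate, were listed together with *Trp53* and had values in both directions. Of 25 past the minimum, the interval lay above 1 for 13 and below 1 for 8, with 1 gene at least 2-fold higher and 5 lower. Over all genes past the minimum, 36.7% had an interval above 1 and 38.1% below it, 14.2% were at least 2-fold higher and 12.3% lower. The median log2 ratio of the list was 0.34. With scaling to *Gapdh* it was 0.76, and that of all genes was 0.43. *Plk2* (32 and 58 reads) and *Btg2* (632 and 989 reads) were highest, and *Sesn2* (23 and 0 reads) and *Tnfrsf10b* (454 and 89 reads) lowest. *Cdkn1a*, *Mdm2* and *Trp53* itself were singled out after their values had been seen. *Cdkn1a*, the inhibitor that halts the cycle, went from 607 to 684 reads, a ratio of 1.27 (95% interval 1.14 to 1.42), *Mdm2*, the ligase that degrades p53, went from 1382 to 1176 reads, a ratio of 0.960 whose interval (0.888 to 1.04) spans 1, and *Trp53* went from 2013 to 879 reads, a ratio of 0.493.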

How the data were processed

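The authors prepared 1 library per condition from 500 ng of RNA using Lexogen's QuantSeq 3′ kit and deposited raw counts, whole reads per gene symbol, without normalization. The submitters' processing notes name bcl2fastq 2.20.0.422, Bowtie2, bedtools and the mm10 build; their roles, filters and strand setting are not given in the sources used here. In a 3′ kit, counts do not grow with transcript length. For scaling, edgeR 4.0.16 (R 4.3.3) gave TMM size factors of 1.062 and 0.941, and intervals were computed with scipy 1.17.1. They were also run on simulated counts that hold counting error alone, so that run says nothing of variation between libraries. No test across genes was run. The 47 genes were matched to RefSeq GRCm38.p6, on the same assembly as mm10, by symbol or synonym. The alternatives were other scalings, with DESeq2 1.42.0 size factors among them, pseudocounts, expression minimums, fold thresholds and a 99% interval. All 47 genes are named. Of other pathway lists, the 2 most extreme genes past the minimum in each direction are named, except for items not reported here. The rule also covered marker lists, which are given instead by sums, counts, genes at 0 and genes with an interval below 1. Members and lists were chosen with earlier results of these data known. PCR copies are not independent molecules, so intervals cover counting error only. *Trac*, a listed T cell marker, has no row under that symbol.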

Additional observations from a re-analysis of the deposited data

How the results depend on the processing

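No paired analysis was possible because only 1 library was made per condition. The log2 ratios of 39 of the 47 genes kept their sign under all 7 scalings and pseudocounts run, and 12 genes were at least 2-fold lower under each of them. These counts have no share of all genes to set beside them. Scaling to *Gapdh*, which rests on 956 and 634 reads, raised the median of all genes to 0.43. With it, the median of the 47 genes was -0.37, 1 gene was at least 2-fold higher (24.3% of all genes) and 10 had an interval above 1 (58.4% of all genes). The difference between the median of the 47 and that of all genes was -0.78 with TMM scaling and -0.80 with *Gapdh*. With a fold threshold of 1.5, 28 genes were lower and 1 higher, against 22.9% and 23.5% of all genes, and with a threshold of 3, 11 were lower, against 5.52%. Without the genes that share exons, 2 had an interval above 1. Other counts of the 47 genes stayed within 1.5 times those given. The 3 reads of *Rad51b* and 16 of *Fancd2* in the RV-Cre library limit the precision of their ratios.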
